A study of Rattus norvegicus with 18 samples.

Results

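The neocortex of rats that could sleep for 6 h after the loss of paradoxical sleep was compared with the neocortex of rats that stayed in the home cage. The arrays used were those titled neocortex recovery of PS (paradoxical sleep) and neocortex control, 6 of 18 arrays in the series, which measured 4 of 12 pools of RNA. Paradoxical sleep, or rapid eye movement sleep, is the state in which the cortical electroencephalogram resembles waking while muscle tone is lost, and its loss is followed by a rebound. Waking and neuronal firing induce immediate-early genes in the cortex, and through them genes for synaptic proteins, peptides and neurotrophins. The cortex also runs a circadian clock, a loop in which CLOCK and BMAL1 bind E-boxes and drive their own repressors, the PER and CRY proteins.

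All rats were male Sprague-Dawley animals of 260 to 300 g with implanted electrodes for sleep recording, kept with lights on from 7 AM to 7 PM and killed at 16 h clock time. Control rats were left in the home cage. Recovery rats spent 72 h on small platforms over water, the flowerpot method, on which the loss of muscle tone wakes a rat as it enters paradoxical sleep, and were then given 6 h in which sleep was allowed. Another state, deprived, was killed straight from the platforms (78 h), and its values are given beside those of the compared groups for some genes. The treatment text can also be read as 6 h of sleep after 78 h of deprivation. Each state held 12 rats in 2 sets of 6, and the right neocortex of each set was pooled, so n = 2 pools in each group. Pooling hides the spread between rats. Prior paradoxical sleep loss, rebound sleep and the stay on platforms cannot be told apart in this contrast, since the home cage rats had none of them.

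Values are log2 of the array signal, and a difference of 1 on this scale is a factor of 2. The cortical label held for marker genes: over the 6 neocortical pools of all states Cux2, an upper-layer transcription factor, lay between 6.97 and 7.12 and the cortical gene Lamp5 from 9.68 up to 10, against 5.01 to 5.92 and 8.15 to 8.37 in the hippocampal pools. Foxp2 of deep-layer neurons lay between 6.82 and 7.12 against 2.44 to 5.07. The hippocampal genes Fibcd1 and Prox1 ran the other way, at 3.12 to 4.37 and 6.12 to 6.37 in the neocortex. The striatal gene Adora2a lay between 5.92 and 6.74 in the neocortical pools. The median signal of the 6 arrays lay between 34.2 and 36.7. The beta-actin 3'/5' signal ratio is larger in more degraded RNA. It was 2.69 and 2.61 in the control pools and 3.18 and 2.83 in the recovery pools (set 1 and set 2). Both recovery pools were thus above both control pools. Single arrays overlapped, since the 2 arrays of control set 1 gave 2.448 and 2.925, the latter above recovery set 2. The Gapdh ratio was 1.08 and 1.12 against 1.08 and 1.17. The part of RNA quality in the results was not tested.

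The pools of a set resembled each other more than the pools of a state. The median correlation between arrays was 0.983 for different states within a set, 0.982 for technical replicates and 0.972 for the same state in different sets. The comparison was made with the set, the biological replicate number, as a paired block. By limma's blocked test 0 of 18625 probe sets passed an adjusted p of 0.05 (0%), and the smallest adjusted p was 0.325. An unadjusted p under 0.05 was reached by 1078 probe sets (5.79%), against 931.2 by chance, and by 209 (1.12%) without the block, where the smallest adjusted p was 1. Every difference below is therefore a description of these pools. Genes that moved alike in both sets are marked as such, because the sets are the replicates.

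Across the 10294 genes with a name, 1 probe set each, 5114 (49.7%) lay above control, 5180 (50.3%) lay below, and the median was -0.0010. The change in set 1 and the change in set 2 correlated across genes at r = 0.067, and 51.9% of genes had the same sign in both. Those values are across genes, which are not independent replicates. Genes above control in both sets made up 25.3% of all and genes below in both 26.5%. In 12.0% both recovery pools lay above both control pools, and in 12.4% below both. At an unadjusted p under 0.05, 2.86% of genes were higher and 2.43% lower. The counts for gene groups that follow are to be read against these shares.

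**Figure D1:**
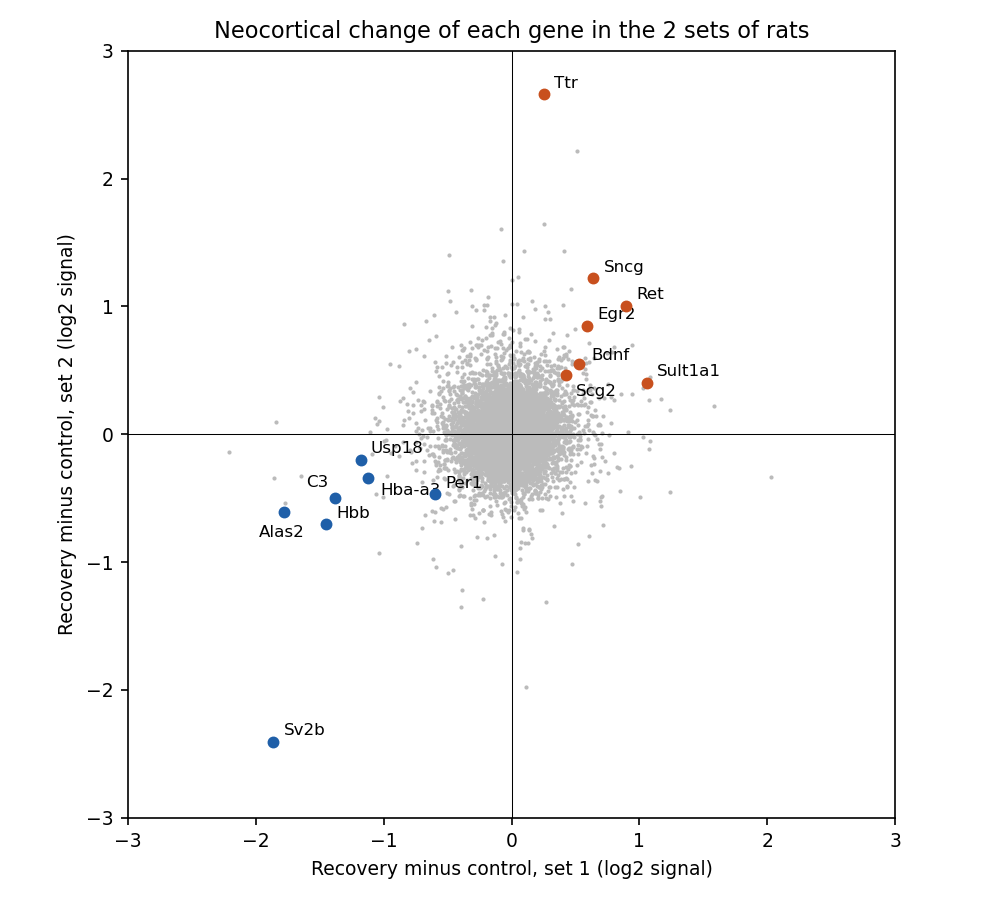
Recovery minus control in the neocortex (log2 signal) for 10294 genes, grey points, 1 probe set each, with set 1 on the horizontal and set 2 on the vertical axis. Named genes are coloured orange where the change was above 0 and blue where it was below 0. The cloud is round (r = 0.067 across genes), with the named genes at its edges.

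Genes induced by neuronal activity were mostly above control. In the list of their effectors, 23 of 30 measured genes were above control after recovery and 7 below, with a median of 0.13 against -0.0010 over all genes. In 21 of the 30 both sets were above control, in 13 both recovery pools lay above both control pools, and 8 were higher and 2 lower at an unadjusted p under 0.05. The medians were 0.082 in set 1 and 0.16 in set 2. With each pool left out in turn, and in the other alternatives, the median stayed between 0.078 and 0.15.

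Promoters of 4 genes of the activity and peptide lists are shown so that the letters searched for can be seen in place. These genes, and those whose promoters are printed further on, were picked after their values were seen and because they hold a match, so they say nothing about the lists. The cAMP response element TGACGTCA, bound by CREB, occurs on either strand in 1.83% of 33469 RefSeq promoter windows of 300 bases (assembly GRCr8, 250 bases before to 50 after the gene start), and its shorter form TGACG, which the full element contains, in 21.2%. The CArG box of serum response factor occurs in 1.64%. Of 34 windows of effector genes, 5 (14.7%) held the full element and 15 (44.1%) the short form. Of 22 windows of neuropeptide genes, 4 (18.2%) and 15 (68.2%) did so. Of 16 windows of immediate-early transcription factors, 4 (25%) held the full element, 13 the short form and 4 a CArG box. No factor binding was measured. Of the 5 effector genes with the full element, Scg2, Vgf and Dusp1 were above control and Plk2 and Ppp1r15a below, while Bdnf, Sik1 and Rgs2 held the short form only. The stretches below are the 150 bases before the gene start, 5' to 3', with the named motif in capitals: the full element in Scg2 (chr9:88256867-88257016, minus strand) and Vgf (chr12:25277021-25277170, minus strand), the short form in Nr4a1 (chr7:134259988-134260137, plus strand) and the CArG box in Egr2 (chr20:21054442-21054591, minus strand).
Scg2: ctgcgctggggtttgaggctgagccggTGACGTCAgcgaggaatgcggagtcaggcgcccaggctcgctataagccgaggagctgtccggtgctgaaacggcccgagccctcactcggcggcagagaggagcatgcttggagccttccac
Vgf: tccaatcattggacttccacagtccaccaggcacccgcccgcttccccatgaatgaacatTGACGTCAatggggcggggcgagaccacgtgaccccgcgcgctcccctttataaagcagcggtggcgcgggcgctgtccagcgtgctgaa
Nr4a1: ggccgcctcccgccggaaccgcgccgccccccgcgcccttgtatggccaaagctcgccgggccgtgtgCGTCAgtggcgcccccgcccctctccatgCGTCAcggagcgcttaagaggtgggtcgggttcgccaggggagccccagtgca
Egr2: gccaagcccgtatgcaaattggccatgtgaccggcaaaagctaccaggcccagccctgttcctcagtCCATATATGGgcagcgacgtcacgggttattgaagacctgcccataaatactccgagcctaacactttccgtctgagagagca
The element in Scg2 began 123 bases before the gene start and that in Vgf 90 bases before it, and the CArG box of Egr2 began 83 bases before it. Both matches in Nr4a1 appear as CGTCA, which is TGACG read on the strand opposite to the gene. A match is a description of these letters and shows no binding in these samples.

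Scg2, which encodes secretogranin II, a granin of dense-core vesicles, had the smallest unadjusted p among probe sets with 1 gene name (6.72e-05 by limma, adjusted p = 0.367). Its log2 signal was 9.07 and 9.15 in the control pools and 9.50 and 9.61 in the recovery pools (set 1 and set 2). Both recovery pools were above both controls, a change of 0.44 (SE 0.073), while the deprived pools were at 9.13 and 9.31. Vgf, a peptide precursor induced by neurotrophins, was at 8.64 and 8.57 in control and 9.28 and 8.93 after recovery (0.50, SE 0.12). Its control and recovery pools did not overlap, but its deprived pools (9.01 and 9.18) overlapped the recovery pools. The neurotrophin gene Bdnf was at 6.01 and 5.65 in control and at 6.54 and 6.20 after recovery, a change of 0.54 (SE 0.11) that was 0.53 in set 1 and 0.55 in set 2. A second, dimmer Bdnf probe set gave 0.45 (SE 0.22). The deprived pools were at 6.05 and 6.07 for Bdnf, so for Scg2 and Bdnf both recovery pools also lay above both deprived pools.

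Ptgs2, the inducible prostaglandin synthase known as COX-2, was at 7.23 and 7.22 in control and 7.77 and 7.49 after recovery (0.40, SE 0.11), without overlap. Its deprived pools, at 7.42 and 7.52, overlapped the recovery pools. Rgs2, a regulator of G protein signalling, was higher by 0.28 (SE 0.091), and Inhba, the activin A subunit, by 0.53 (SE 0.21). In both genes the recovery pools lay above the control pools. Tiparp was higher by 0.32 (SE 0.12), with recovery set 2 (6.15) just under control set 1 (6.16). Sik1, a kinase induced by cAMP, had pools at 4.65 and 3.20 in control and 4.90 and 4.84 after recovery. Its control mean lay under the level of 4.30 at which dim probe sets were left out, so the size of its difference is not settled. The 2 lower effector genes were Slc2a3, the neuronal glucose transporter, at -0.24 (SE 0.084), and Nptx1, neuronal pentraxin 1, at -0.16 (SE 0.067).

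Not all activity genes followed. Arc, which encodes a synaptic protein made after strong firing, was at 6.33 and 6.69 in control and 6.30 and 6.78 after recovery (0.028, SE 0.10), while the deprived pools were at 7.24 and 7.65. Homer1, Plk2 and Ppp1r15a had changes of -0.088, -0.17 and -0.13. Egr4 was at 0.061 and Junb at -0.10. The recovery pools of Arc thus overlapped those of the home cage, whereas those of Scg2 and Bdnf did not.

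Among 20 immediate-early transcription factors, 12 were above control and 8 below, a split near that of all genes. Their median was 0.056 (0.14 in set 1 and 0.018 in set 2). The 6 with an unadjusted p under 0.05 were all higher: Nr4a3, Egr2, Nr4a1, Egr1, Jund and Crem. Nr4a3, an orphan nuclear receptor, was at 6.96 and 7.02 in control and 7.47 and 7.26 after recovery (0.37, SE 0.089), and its other 2 probe sets gave 0.62 and 0.21. Egr2, a zinc finger factor, was at 5.25 and 4.77 in control and at 5.85 and 5.62 after recovery (0.72, SE 0.25). Nr4a1 was higher by 0.33 (SE 0.12) and Egr1 by 0.23 (SE 0.094). In all 6 genes the recovery pools lay above the control pools.

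Fos, the classic marker of neuronal activation, was at 5.87 and 6.77 in control and 6.49 and 7.12 after recovery (0.48, SE 0.22). It was higher within each set, but recovery set 1 lay under control set 2. The deprived pools were at 7.04 and 7.51. For Nr4a1 too the deprived pools (7.41 and 7.68) were above the recovery pools (7.31 and 7.25). Both comparisons with control share the control pools, so the values are given side by side only.

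**Figure D2:**
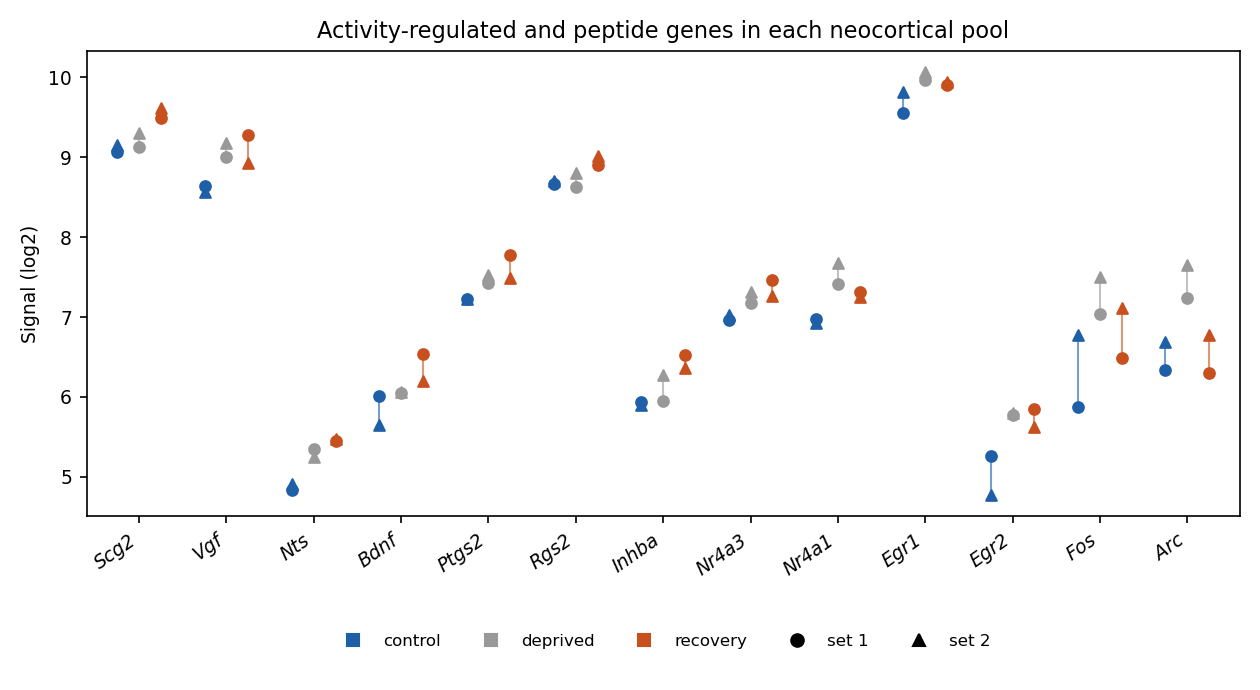
Log2 signal of 13 activity-regulated and peptide genes in each neocortical pool, blue for control, grey for deprived and orange for recovery, circles for set 1 and triangles for set 2. Levels of different genes are not comparable. Recovery pools lie above control pools for Scg2, Vgf, Nts and Bdnf, and overlap them for Fos and Arc.

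Neuropeptide genes and the proteins that process them were mostly above control: 20 of 29 were higher and 9 lower, with a median of 0.10 (0.026 in set 1 and 0.085 in set 2). At an unadjusted p under 0.05, 6 were higher and 0 lower, and 11 had recovery pools above the control pools. Scg2 and Vgf were among these 6 and are counted in the list of effectors too, so the 2 lists are not separate observations. Nts, the neurotensin precursor, was at 4.84 and 4.91 in control and 5.45 and 5.48 after recovery. This change of 0.59 (SE 0.11, limma's adjusted p = 0.367) was among the 10 smallest p, and the deprived pools stood between, at 5.35 and 5.24.

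Among granins, which package peptides into secretory granules, Scg3 was at 10.37 and 10.46 in control and 10.55 and 10.60 after recovery (0.16, SE 0.061), while Chga, Chgb and Scg5 had changes of -0.13, -0.091 and 0.0070. Granin genes thus differed in sign. Adcyap1, which encodes PACAP, was at 6.29 and 6.82 in control and 7.06 and 6.90 after recovery (0.43, SE 0.18). Nxph1, a neurexin ligand, was higher by 0.32 (SE 0.10), with pools apart. The other peptide genes were not alike. Crh, the corticotropin-releasing hormone gene, was at 0.34 (SE 0.21) and Pnoc, which encodes nociceptin, at 0.30 (SE 0.18), both with pools that did not overlap. Most of both changes lay in set 1, with 0.59 in set 1 and 0.081 in set 2 for Crh and 0.52 and 0.076 for Pnoc. The tachykinin genes Tac1 and Tac3 were at 0.26 (SE 0.14) and 0.19 (SE 0.17), and Penk, the enkephalin precursor, at 0.17 (SE 0.14). For Penk the sets differed in sign, with -0.14 in set 1 and 0.48 in set 2, and for Tac1 they were at 0.13 and 0.40. The part of striatal tissue in the Penk and Tac1 values was not tested. Vip was at 0.10 (SE 0.10), Npy at 0.013 (SE 0.078), Sst at -0.020 (SE 0.072) and Cck at -0.073 (SE 0.060). Of 19 interneuron markers 10 were above and 9 below control, and the median was 0.0033.

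In the list of neurotrophins, growth factors and their receptors 16 of 23 genes were above control and 7 below, with 11 above in both sets. The median was 0.10 (0.10 in set 1 and 0.036 in set 2). Bdnf is counted both here and in the list of effectors. Beside Bdnf, its receptor gene Ntrk2 (TrkB) had 4 probe sets above the filter, and each was above control, with changes of 0.45 (SE 0.076), 0.24 (SE 0.066), 0.18 (SE 0.094) and 0.16 (SE 0.074). The first of these had pools at 7.83 and 9.05 in control and 8.37 and 9.41 after recovery (limma's adjusted p = 0.367). Here the sets lay further apart than the states, and the difference was seen only within sets. Ret, the receptor kinase for GDNF family ligands, was at 3.98 and 3.59 in control and 4.88 and 4.59 after recovery (0.95, SE 0.19). The control level of Ret was below the filter level, so its fold is not settled. The ligand gene Vegfa was at -0.19 (SE 0.094) and Igf1r at -0.0072 (SE 0.12).

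After red cell transcripts, circadian clock genes had the lowest median of the lists. Of 20 measured, 16 were below control and 4 above, with a median of -0.16 that was -0.20 in each set. In 13 both sets were below control, in 6 both recovery pools lay below both control pools, and at an unadjusted p under 0.05 there were 6 lower and 0 higher. Over the alternatives the median stayed between -0.20 and -0.11. The hour of killing was the same for every group.

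Among the repressors of the loop, Per1 was at 6.00 and 6.35 in control and 5.40 and 5.88 after recovery, a change of -0.53 (SE 0.15). Both recovery pools were below both controls, and the deprived pools (6.07 and 6.32) lay at the control level. Per3 was at -0.25 (SE 0.14), lower in each set by nearly the same amount. Per2 was at -0.065 (SE 0.13), with set 1 at 0.19 and set 2 at -0.31, and Cry1 and Cry2 were at 0.13 and 0.041. Bhlhe40 and Bhlhe41, which encode the repressors DEC1 and DEC2, were lower by -0.36 (SE 0.14) and -0.17 (SE 0.068). Bhlhe41 was at 9.09 and 8.97 in control and at 8.88 and 8.84 after recovery, without overlap, while for Bhlhe40 recovery set 2 (6.56) was above control set 1 (6.23).

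Among the PAR bZIP output factors, Dbp was at 8.34 and 8.6 in control and 8.0 and 8.41 after recovery (-0.26, SE 0.096), Tef at -0.27 (SE 0.12, from set 1 only) and Hlf at -0.12 (SE 0.089). The recovery pool of set 2 for Dbp lay above the control pool of set 1. In the nuclear receptor arm, Rora, an activator, had a change of -0.54 (SE 0.18), with control at 6.01 and 5.33 and recovery at 5.31 and 4.95. Nr1d2, a repressor, was at 9.20 and 9.32 in control and 9.07 and 9.11 after recovery, and Nr1d1 was at -0.15 (SE 0.14). The activators Clock and Bmal1 were at -0.15 (SE 0.10) and -0.16 (SE 0.14), and Npas2 at 0.041 (SE 0.12). Genes below control thus included activators as well as repressors of the loop.

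The E-box CACGTG occurs in 6.42% of all promoter windows and in 4 of 19 windows of clock genes (21.1%). These were the windows of Bhlhe40, Bhlhe41, Nr1d1 and Tef. All of these genes were below control, as were 16 of the 20 clock genes measured, so their direction does not set them apart. The stretch of Bhlhe41 (chr4:180569356-180569505, minus strand) is shown with the E-box in capitals, 48 bases before the gene start.
Bhlhe41: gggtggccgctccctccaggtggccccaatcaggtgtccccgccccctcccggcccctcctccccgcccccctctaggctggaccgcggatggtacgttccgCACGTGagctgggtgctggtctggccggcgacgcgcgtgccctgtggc
As with the cAMP response elements, this is a count of letters in these windows.

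**Figure D3:**
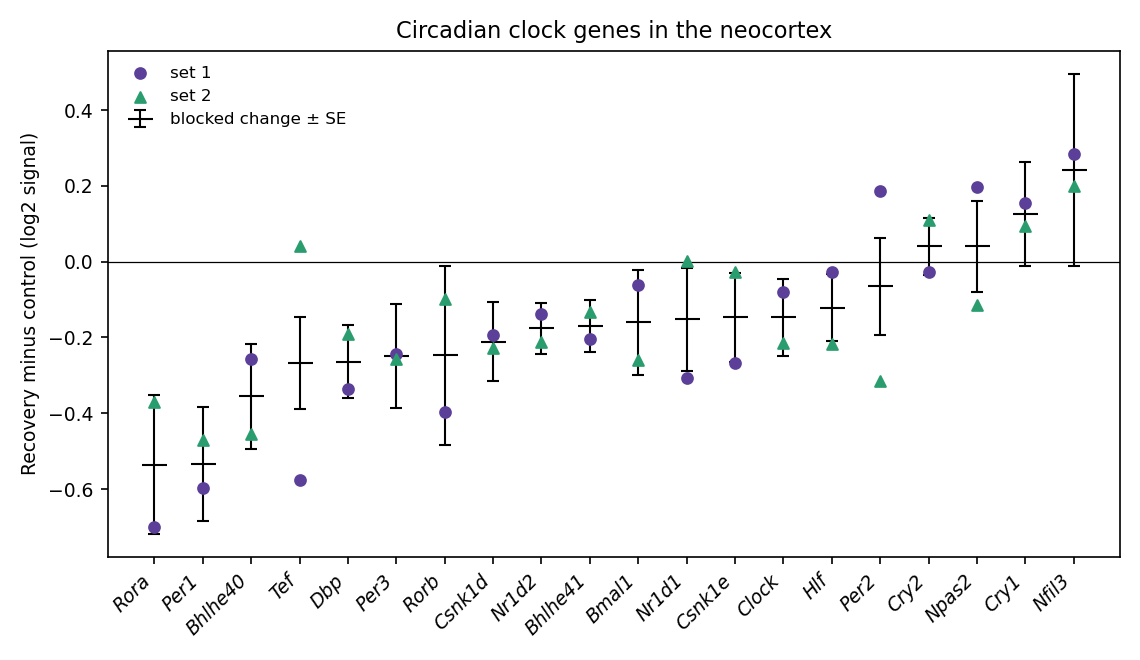
Recovery minus control (log2 signal) of 20 clock genes in the neocortex, circles for set 1, triangles for set 2, and bars for the blocked change with its SE. In 13 genes both sets lie below 0.

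Transcripts of red blood cells had the lowest median of the lists, -0.73 over 5 genes. It lay between -1.07 and -0.135 over the alternatives, the latter with no filter on dim probe sets. Hbb, a beta-globin gene, was at 10.96 and 10.57 in control and 9.50 and 9.87 after recovery, 2.11-fold lower (change -1.08, SE 0.20, limma's adjusted p = 0.367). The deprived pools were at 10.60 and 10.47, so the recovery pools were below the other 4. Alas2, the erythroid enzyme that starts haem synthesis, was at 5.89 and 5.12 in control and 4.11 and 4.51 after recovery (-1.19, SE 0.31). Hba-a3, an alpha-globin gene, was at 7.34 and 6.91 in control and 6.22 and 6.56 after recovery (-0.73, SE 0.17). Fech and Bpgm, which other cells also use, were at -0.078 and 0.029. The red cell list counted 4 of 5 genes below control, with medians of -1.12 in set 1 and -0.34 in set 2. In pooled tissue, fewer cells of a type and less RNA per cell cannot be told apart.

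The same 3 genes were lower in the hippocampal formation of the same rats, by -1.07 (SE 0.20) for Hbb, -1.45 (SE 0.31) for Alas2 and -1.19 (SE 0.17) for Hba-a3. When the spread was estimated from the 6 neocortical pools alone, 1 probe set passed limma's test, one with several gene symbols in the annotation, at -1.24 (adjusted p = 0.000468). Vessel markers were split: of 20 endothelial markers 12 were above and 8 below control, and the median was 0.014. Of 10 pericyte and smooth muscle markers 4 were above and 6 below (median -0.048).

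Interferon-induced genes were lower mainly in set 1. Of 27 measured, 17 were below control and 10 above, with a median of -0.059, which was -0.25 in set 1 and 0.037 in set 2. At an unadjusted p under 0.05 there were 3 lower and 0 higher, and 7 had recovery pools below the control pools. Rsad2, the antiviral enzyme viperin, was at 5.60 and 4.97 in control and 4.6 and 4.48 after recovery (-0.75, SE 0.27), without overlap. Irf7, the factor that amplifies interferon production, was at 5.90 and 5.58 in control and 5.15 and 5.37 after recovery (-0.48, SE 0.18), also without overlap. Isg15, a ubiquitin-like modifier, was at -0.42 (SE 0.20). Usp18 was at -0.69 (SE 0.30), with a recovery mean under the filter level. The median was 0.035 without the recovery pool of set 1.

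The core of the interferon-stimulated response element occurs in 3.92% of all windows and in 14 of 23 windows of interferon genes (60.9%), of which 9 were below control and 5 above. The stretches of Irf7 (chr1:205800024-205800173, minus strand) and Rsad2 (chr6:48788121-48788270, minus strand) are shown with this core in capitals.
Irf7: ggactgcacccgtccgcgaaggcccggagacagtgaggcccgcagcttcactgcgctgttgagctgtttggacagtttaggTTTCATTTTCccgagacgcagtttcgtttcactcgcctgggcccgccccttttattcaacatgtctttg
Rsad2: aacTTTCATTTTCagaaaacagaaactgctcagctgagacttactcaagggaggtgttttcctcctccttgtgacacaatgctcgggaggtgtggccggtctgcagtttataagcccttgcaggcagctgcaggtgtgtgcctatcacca
Both matches read on the strand opposite to the gene.

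Antigen presentation and complement genes had 14 of 16 below control and 2 above, with a median of -0.12. That count rests on set 1: the medians were -0.29 in set 1 and 0.085 in set 2, and 5 genes were below control in both sets. One of these 5 was C3, the central complement component, at 7.76 and 6.01 in control and 6.38 and 5.52 after recovery, a change of -0.94 (SE 0.23) that was -1.38 in set 1 and -0.50 in set 2. Recovery set 1 still lay above control set 2. C1qc was at 6.70 and 5.69 in control and 5.89 and 5.82 after recovery, and its change was -0.81 in set 1 and 0.13 in set 2. For the MHC class II chaperone gene Cd74 the changes were -0.57 and 0.31. The list's median was 0.078 when recovery set 1 was left out and -0.28 when recovery set 2 was left out.

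Microglia markers also had medians of opposite sign in the 2 sets. This list shares C1qa, C1qb, C1qc and Ctss with the complement list, so the 2 lists are not separate observations. Of 17, 10 were below control and 7 above (median -0.072), with medians of -0.31 in set 1 and 0.13 in set 2. The log2 of their mean signal was 7.66 and 7.17 in the control pools and 7.49 and 7.30 in the recovery pools, so the control pool of set 1 was the highest and that of set 2 the lowest. Fcer1g, a signalling chain of immune receptors, was lower in both sets (-0.25, SE 0.081). Aif1, which encodes IBA1, was at -0.37 (SE 0.17), and Cx3cr1 at -0.30 (SE 0.15), with pools apart. The homeostatic marker P2ry12 was at 0.043 (SE 0.095) and Gpr34 was higher, at 0.33 (SE 0.14). The part of microglial content in the values of the interferon and complement genes was not tested.

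**Figure D4:**
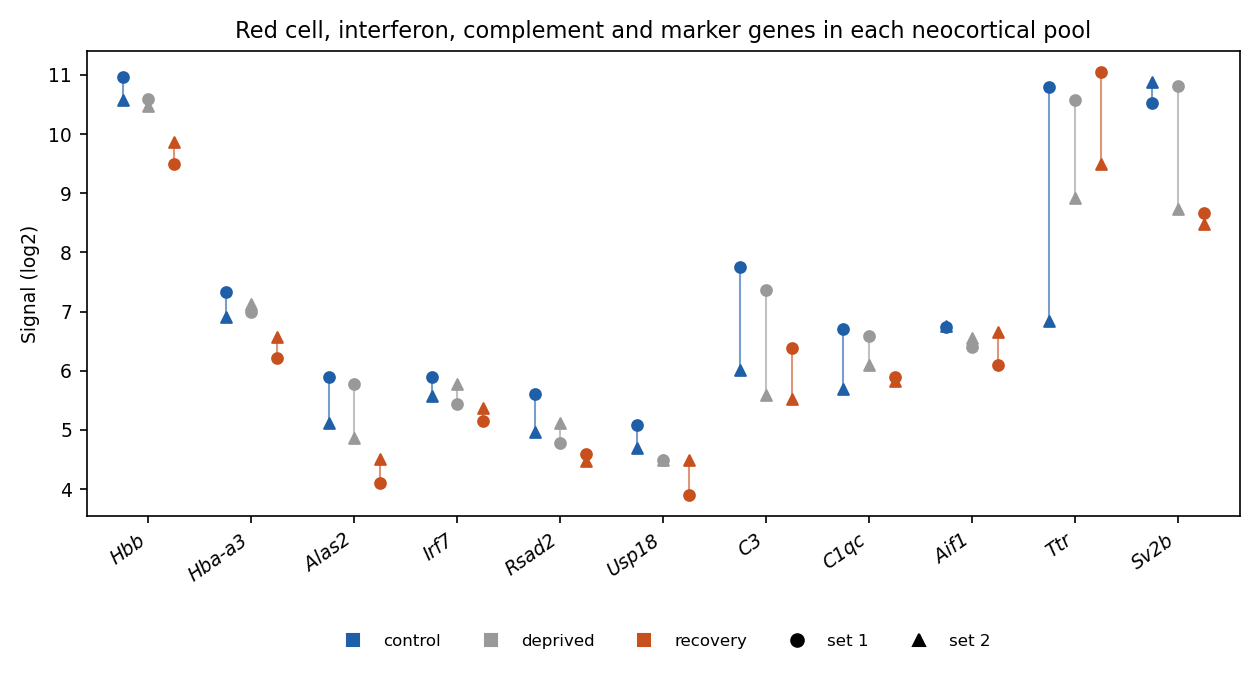
Log2 signal of red cell genes, interferon and complement genes, microglial genes, Ttr and Sv2b in each neocortical pool, with colours for the state and symbols for the set. Recovery pools lie below control pools for Hbb, Hba-a3, Alas2, Irf7, Rsad2 and Sv2b, while the control pools of C3, C1qc and Ttr differ between the sets.

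Markers of choroid plexus, a tissue that is not part of the cortex, differed between sets more than between states. Ttr, transthyretin, was at 10.80 and 6.84 in control, 11.05 and 9.50 after recovery and 10.57 and 8.91 in the deprived pools. Its change was 0.25 in set 1 and 2.66 in set 2. Folr1 followed with 0.26 and 1.0, and 6 of 8 markers were above control (median 0.19). The log2 of the list's mean signal was 8.61 and 6.96 in control and 8.73 and 7.66 after recovery. Thus the control pool of set 2 was the one that stood apart. Among striatal neuron markers 9 of 13 were below control, with medians of -0.31 in set 1 and 0.10 in set 2. The part of neighbouring tissue in the dissections was not tested.

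Other cell classes were near the home cage level. Of 23 neocortical layer markers 9 were above and 14 below control, and the median was -0.016, and the log2 of their mean signal was 8.88 and 8.92 in both groups. Myelin and oligodendrocyte markers had 9 of 21 above (median -0.025). Astrocyte markers had 14 of 22 above (median 0.037), among them Agt, angiotensinogen, at 0.22 (SE 0.091), and Ndrg2 at 0.17 (SE 0.073). Sox6, a transcription factor of interneurons and oligodendrocyte precursors, was at 6.02 and 5.98 in control and 6.47 and 6.57 after recovery (0.52, SE 0.11), with pools well apart. The other precursor markers were smaller: Pdgfra was at 0.020 and Vcan at 0.064, and the median of 9 was 0.064.

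**Figure D5:**
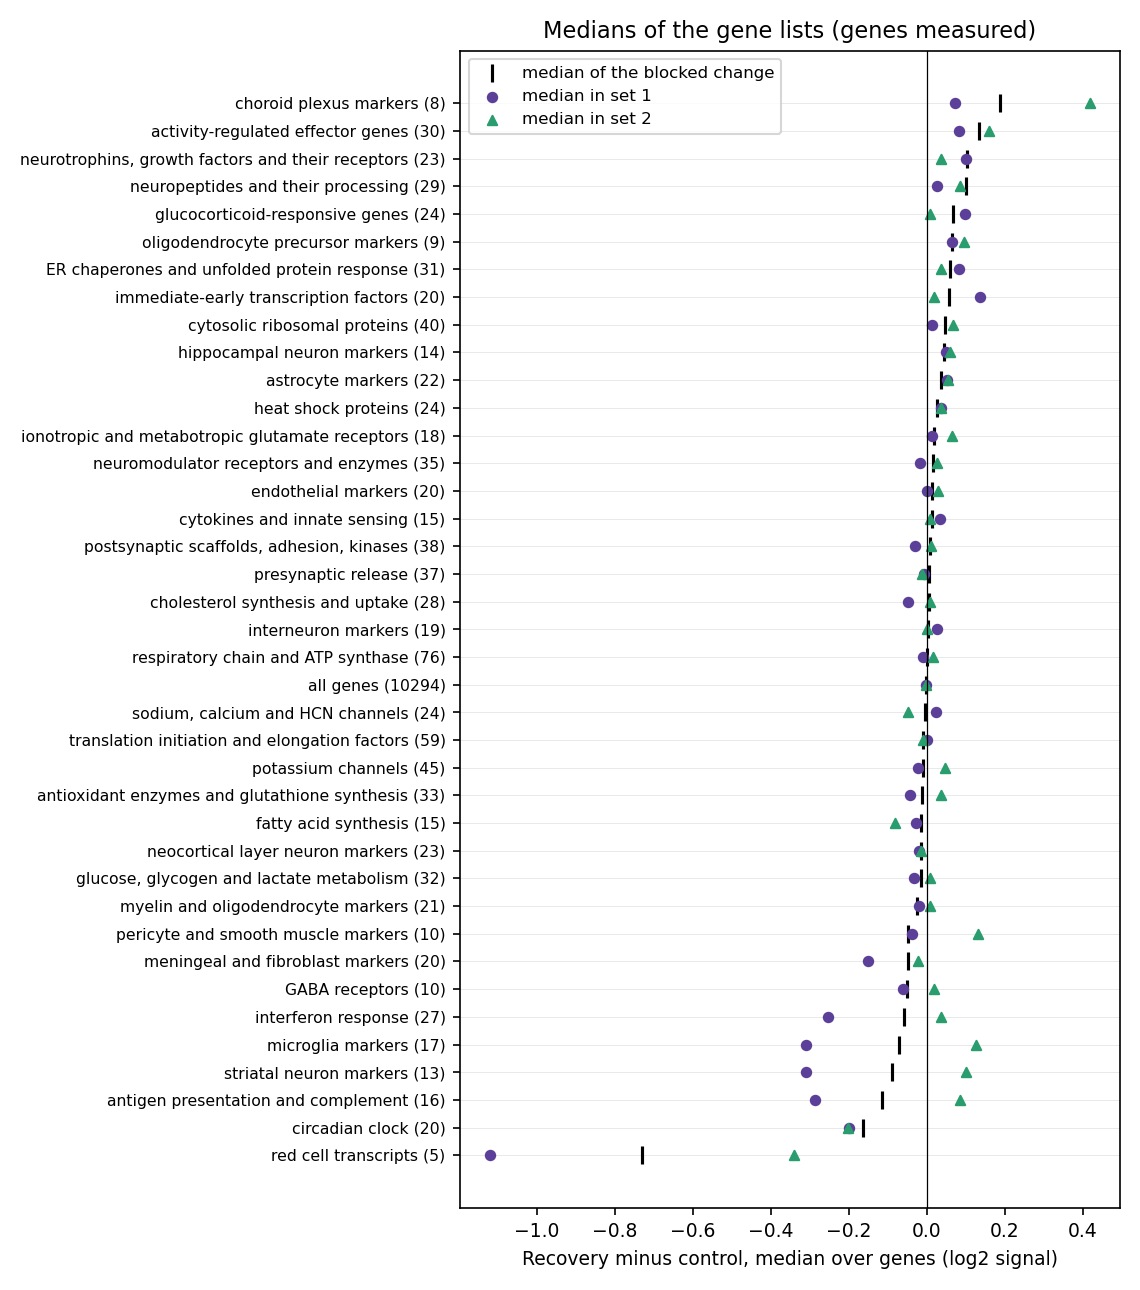
Median recovery minus control difference (log2 signal) of each gene list with 5 or more measured genes, with the number of genes in brackets, in set 1 (circles), set 2 (triangles) and for the blocked change (bars). Clock genes lie at -0.20 in each set, while interferon, complement, microglial and striatal lists lie below 0 in set 1 and above 0 in set 2.

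The list of glucocorticoid-responsive genes, which also names the receptor genes Nr3c1 and Nr3c2, had more genes above control than below. Of 24, 16 were above and 8 below control, and the median was 0.067 (0.098 in set 1 and 0.0082 in set 2). The highest were Sult1a1, a sulfotransferase, at 6.66 and 6.72 in control and 7.72 and 7.12 after recovery (0.73, SE 0.20), and Gpd1, a glycerol-3-phosphate dehydrogenase, at 7.30 and 7.72 in control and 7.88 and 7.96 after recovery (0.40, SE 0.097). For Gpd1 the deprived pools were higher still, at 8.45 and 8.54. The kinase gene Sgk1 was at 8.52 and 8.90 in control, 9.52 and 9.45 in the deprived pools and 8.75 and 8.89 after recovery (0.11, SE 0.11). Fkbp5, which encodes a chaperone of the glucocorticoid receptor, was at 0.087 (SE 0.10), and Ddit4 was below control at -0.21 (SE 0.097). The recovery pools of Sult1a1 and Gpd1 lay above both control pools, and those of Sgk1 lay between them.

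Chaperone lists held single genes with larger values. Of 24 heat shock genes 15 were above control (median 0.026). Hspa2, an HSP70 family member, was at 5.69 and 5.86 in control and 6.44 and 6.50 after recovery (0.69, SE 0.15). Dnajb5, a DnaJ co-chaperone, was at 6.84 and 7.20 in control and 7.24 and 7.80 after recovery (0.50, SE 0.11). In both the recovery pools were above the control pools, but a second Hspa2 probe set gave 0.0060 and the other Dnajb5 probe sets -0.35 and 0.21. In the endoplasmic reticulum list 21 of 31 were above control (median 0.060), among them Hspa5, the lumenal chaperone BiP, at 0.22 (SE 0.092), and Chac1 at 0.30 (SE 0.10). Eif2ak3, which encodes the stress sensor PERK, was lower, at -0.37 (SE 0.13).

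Genes of energy and lipid metabolism stayed close to 0 as lists. The medians were -0.00051 for 76 genes of the respiratory chain and ATP synthase, -0.016 for 32 genes of glucose, glycogen and lactate metabolism and 0.0047 for 28 genes of cholesterol synthesis and uptake. Ribosomal protein genes had 28 of 40 above control with a median of 0.046 and 0 with an unadjusted p under 0.05 in either direction. In fatty acid synthesis 11 of 15 were below control (median -0.015). The lowest was Scd, stearoyl-CoA desaturase, at 5.16 and 5.28 in control and 4.61 and 4.59 after recovery (-0.62, SE 0.18). Scd2 of the same list, far brighter at a control mean of 11.62, was at 0.046 (SE 0.079), with sets of opposite sign. Tm7sf2, a sterol reductase, was lower by -0.37 (SE 0.13), with pools apart. In the antioxidant list Srxn1, sulfiredoxin, was higher (0.39, SE 0.13) and Slc7a11, the cystine transporter that feeds glutathione synthesis, lower (-0.23, SE 0.073).

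Receptor and channel genes were balanced in number. Glutamate receptors had 9 of 18 above control (median 0.019), GABA receptors 4 of 10 (median -0.050) and potassium channels 21 of 45 (median -0.011). Of the potassium channel genes 5 were higher and 1 lower at an unadjusted p under 0.05. Kcnd3, an A-type channel, was at 7.55 and 7.71 in control and 7.86 and 7.97 after recovery (0.28, SE 0.078), and Kcnma1, the BK channel, was higher by 0.27 (SE 0.083). Kcnj9, a GIRK subunit, was lower by -0.38 (SE 0.15). Among neuromodulator genes Htr2c, a serotonin receptor, was at 8.30 in both control pools and at 8.65 and 8.61 after recovery (0.33, SE 0.10). Gabrb1, a GABA-A subunit, was higher by 0.24 (SE 0.082), with recovery set 1 (9.29) below control set 2 (9.34).

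Among presynaptic genes 19 of 37 were above control and 18 below, and the list held both the largest lower value and the largest higher value by the rule for single genes. Sncg, gamma-synuclein, was at 5.43 and 5.53 in control and 6.07 and 6.75 after recovery, 1.91-fold higher (0.93, SE 0.17, limma's adjusted p = 0.367). The deprived pools were at 5.17 and 5.45, so both recovery pools stood above the other 4. In the hippocampal formation of the same rats Sncg was higher by 0.91 in set 1 and 1.41 in set 2.

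Sv2b, a synaptic vesicle protein, was at 10.53 and 10.88 in control and 8.66 and 8.47 after recovery on 1 probe set, 4.39-fold lower (-2.13, SE 0.57, limma's adjusted p = 0.676). The deprived pools were at 10.82 in set 1 and 8.73 in set 2, and the hippocampal pools at 10.55 and 10.69 in control and 9.49 and 10.52 after recovery. The other Sv2b probe set was at -0.24 (SE 0.086). The signal of the first probe set thus had low and high levels within states as well, and its partner did not share the size. With only the 4 pools of the compared groups in the fit, which leaves 1 residual degree of freedom, this probe set had an adjusted p of 6.89e-07, and with the 12 pools it did not pass. The related gene Sv2a was higher by 0.23 (SE 0.080), and Syt1, the calcium sensor of release, was at -0.24 (SE 0.079).

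The other largest higher values were Ubp1, Sc5d, Tmem255a, Prdm2, Mas1, Jag1, Snrpn, Wdr35 and Etv1, between 0.71 and 0.88, beside Sult1a1 and Egr2 above. They were taken from the 286 named probe sets (2.03% of 14113) that had an unadjusted p under 0.05, non-overlapping pools and both means above the filter level. Mas1, a receptor for angiotensin peptides, was at 4.88 and 5.41 in control and 5.68 and 6.09 after recovery (0.74, SE 0.16). Jag1, a Notch ligand, was at 4.54 and 5.04 in control and 5.71 and 5.32 after recovery (0.72, SE 0.22).

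Several of these values rest on 1 of a gene's probe sets. Sc5d, a desaturase of sterol synthesis, gave 0.81 (SE 0.22) on 1 probe set, 0.33 (SE 0.13) on another and 0.019 (SE 0.085) on the third. Etv1, a factor of layer 5 neurons, gave 0.71 on the dimmest and between -0.095 and 0.091 on its other 4. For Ubp1 the other probe sets gave 0.030 and 0.17, and for Prdm2 they lay between -0.27 and 0.21. Myh1, annotated as a myosin heavy chain, differed from these in that its 5 probe sets were all above control, between 0.20 and 0.46. Over all genes with several probe sets kept, 1465 of 2853 had signs that differed.

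On the low side, 281 named probe sets (1.99%) met the same criteria. Beside Sv2b, Hbb, Alas2 and Rsad2, the largest lower values were Pcp2, Plk5, Tgif1, RGD1562465, Zfp483, Dennd1b, Ap5z1 and Srpk3, between -0.87 and -0.75. All lay at a log2 signal under 6 in control, near the dim end of the kept range. Tgif1, a repressor of TGF-beta signalling, was at 5.51 and 5.43 in control and 5.12 and 4.22 after recovery. Plk5 was at 5.52 and 5.76 in control and 4.93 and 4.72 after recovery. Brighter was Eif3c, a subunit of a translation initiation factor, at 7.01 and 6.99 in control and 6.34 and 6.57 after recovery (-0.55, SE 0.10). Its brighter probe set gave -0.12 (SE 0.084).

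The hippocampal formation of the same rats was used to ask where the neocortex differed. The test of the difference between structures called 0 of 18625 probe sets (0%), with a smallest adjusted p of 0.922, and 988 (5.30%) had an unadjusted p under 0.05. Recovery minus control in the hippocampal formation alone also gave 0 calls. Of 10294 genes 47.6% were above control there.

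Effector genes were above control in the hippocampal formation as well, with 27 of 30 and a median of 0.24. Bdnf was higher there by 0.62 and 0.72 in the sets, and the difference between structures had an unadjusted p of 0.459. Clock genes were nearer to an even split, with 9 above and 11 below and a median of -0.057. Per1 was at 0.56 and -0.041 in the hippocampal sets and Rora at 0.13 and 0.58, against -0.60 and -0.47 for Per1 and -0.70 and -0.37 for Rora in the neocortex. The unadjusted p of the difference between structures by limma was 0.00963 for Per1 and 0.00412 for Rora. Neither passed when adjusted over all probe sets. Both genes were picked by their neocortical values, which also enter this test, so a small p was favoured. Of the 20 clock genes 2 had such a p under 0.05, against 443 of 10294 genes. Hspa2 and Dnajb5 were at -0.097 and -0.0022 in the hippocampal formation. Ttr ran opposite, at -1.27 and -1.93 there. None of these differences between structures passed the adjusted threshold.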

How the data were processed

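Each pool held equal RNA of 6 rats, hybridised to 2 rat expression arrays for set 1 and 1 for set 2. The deposited values were linear intensities of 31099 probe sets per array, made with MAS5 per the submitters' processing notes. Its settings and scaling target are not given in the sources used here. The trimmed mean of every array was 100.

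Intensities were raised to a floor of 1 and put on the log2 scale, the arrays of a pool were averaged, 57 control probe sets were left out, and the lowest 40% by mean were left out (log2 under 4.30, a signal under 19.7). This kept 18625 probe sets, of which 14113 had 1 gene symbol in the platform annotation, for 10294 genes. Names were given only to those. Of the 20832 probe sets with 1 symbol in the file, 20764 matched a RefSeq gene by identifier. The probe set with the highest mean stood for a gene in lists.

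All 12 pools were fitted with limma 3.58.1 under R 4.3.3 (lmFit, then eBayes with a trend on mean level), with group means and the set as a block in each structure (4 residual and 7.58 prior degrees of freedom), and Benjamini-Hochberg adjustment. Whether a set number marks a shared litter or day is not said in the labels. Control and recovery pools of the same set deviated together from their neocortical group means (r = 0.54). For the difference between structures, the neocortical value of each animal pool was taken from its hippocampal value and these were fitted, with the set as a block (2 residual and 3.32 prior degrees of freedom). The scripts were tested on simulated data. With the set as a block, the p-values measure how far the differences between states disagreed between the 2 sets. They do not measure the spread between sets or between rats. This residual spread was taken over both structures, whose pools came from the same rats but were fitted as independent.

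Genes were named as the 12 largest higher and 12 largest lower values with an unadjusted p under 0.05, pools apart and both means above the filter level, the 10 smallest p, and up to 4 members with the smallest p in each of 39 lists. Other list members were picked as examples after their values were seen. The members and lists were chosen with earlier results of these data known. Figures were drawn with matplotlib 3.10.9.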

Additional observations from a re-analysis of the deposited data

How the results depend on the processing

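The count of probe sets past an adjusted p of 0.05, 0 over all 12 pools, was 1 with the spread of the 6 neocortical pools and 17 with that of the 4 compared pools, which leaves 1 residual degree of freedom. It was 838 with every array kept and the pool as a random block, where the estimated correlation within pools was -0.55 and the test rests on technical replicates, and between 0 and 3 with a pool left out (3 without the recovery pool of set 2). The count at an unadjusted p under 0.05, 1078 with the replicate block, was 209 without it, 4221 with every array kept, 688 with technical array 2 of set 1 alone, 1668 with no filter, where more probe sets were tested, and between 775 and 1279 with a pool left out. For the difference between structures it was 988, against 405 without the block and 1577 with no filter. Quantile normalization, a floor of 16, no intensity trend and a filter on the lowest 60% kept the neocortical counts within 1.5 times.

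Of 2476 values of 168 named probe sets under alternatives, 2455 kept their sign and 21, in 17 probe sets, did not. With technical array 1 of set 1 alone Ubp1 was at -0.047. With array 2 alone RT1-DMb was at 0.044, Cirbp at 0.057, Nlgn1 at -0.050, Gsr at 0.17, Crym at 0.0024, Cck at 0.035, Tnr at 0.066 and Tie1 at 0.021. With a pool left out, values ranged from -0.0036 to 0.38 for Fam107a, -0.70 to 0.024 for C1qc, -0.16 to 0.011 for Vcam1, -0.30 to 0.23 for Cirbp, -0.042 to 0.55 for Gria1, -0.017 to 0.60 for Cacnb1, -0.062 to 0.50 for Adcy5, -0.40 to 0.062 for Tnr, -0.48 to 0.024 for Myh11 and -0.18 to 0.020 for Fech. The cause of these moves was not tested.

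List medians kept their sign in all 16 alternatives for effector, immediate-early, clock, neuropeptide, neurotrophin, red cell, choroid plexus and ribosomal genes, in 15 for interferon and glucocorticoid-responsive genes and in 14 for complement and microglial genes. The number of pools, 2 a group, limits the precision.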

Other observations

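Lists that were not described above lay near the median of all genes (-0.0010). Of 15 cytokine and innate sensing genes 9 lay above control (median 0.013), 59 translation factors had a median of -0.0099, 24 sodium, calcium and HCN channel genes one of -0.0060, and 38 postsynaptic genes one of 0.0072. Among translation factors Eif2a was higher by 0.38 (SE 0.12), and among postsynaptic genes Neto1, an auxiliary subunit of kainate receptors, was higher by 0.44 (SE 0.14). Neither passed the adjusted test. Meningeal and fibroblast markers had 13 of 20 below control (median -0.048), with Col3a1, a fibrillar collagen, at -0.48 (SE 0.19). Hippocampal neuron markers, which cortical pools could hold, were split 7 above and 7 below (median 0.044). The cold-induced RNA-binding protein genes Rbm3 and Cirbp were at -0.10 (SE 0.083) and -0.033 (SE 0.14).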
